A study of Mus musculus with 8 samples.

Results

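The genes described here encode the claudins, junction proteins and cadherins that hold pancreatic cells together: *Cldn3*, *Cldn4*, *Cldn5*, *Cldn7*, *Cldn10*, *Ocln*, *Tjp1*, *Cdh1*, *Cdh2* and *Cdh5*. They were taken by symbol from a single-cell count table, and all 10 were among its 19945 genes. The table came from islets of wild-type mice given vehicle or the focal adhesion kinase inhibitor PF562271 (FAKi, 50 mg/kg, 2 doses a day for 3 weeks), isolated 10 days after the treatment ended. Islets were picked by hand and pooled from 5 mice per condition. The study names C57BL/6 mice aged 8 weeks for its first experiment with the inhibitor, and its methods put every mouse of the study at 6 to 12 weeks when its experiment began. The strain behind these libraries, and their age within that range, were not given separately in the sources used here. The 8 samples were 4 sequencing lanes of each of 2 libraries, 1 vehicle-treated and 1 FAKi-treated. Each condition was therefore 1 sample of pooled islets, and no difference between conditions could be tested. Where a pair of values is given, the first is that of the vehicle and the second that of the FAKi library. Intervals in brackets are 95% intervals of the counting error alone.

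Tight junctions seal the space between neighbouring cells. Claudins and occludin are the membrane proteins that form their strands, and the scaffold ZO-1 ties the strands to actin. Adherens junctions lie beside them and are built from cadherins, which bind the same cadherin on the next cell. In the pancreas, duct and acinar cells are polarised around a lumen and carry both kinds of junction, endocrine cells are joined mainly by E-cadherin, N-cadherin and gap junctions, and blood vessels use their own claudin and cadherin.

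The vehicle library held 3776 cells and 59514118 transcripts counted by unique molecular identifiers (UMIs), and the FAKi library 3183 cells and 57836783 UMIs. The deposited annotation put the cells in 17 clusters and 12 classes. Levels below are UMIs of a gene scaled to 1000000 UMIs of all genes (counts per 1000000, CPM), summed over the cells of a class in a library, and a level was compared only within a gene. Median depth was 9546 UMIs per ductal cell under vehicle and 9661.5 under FAKi, but 30792.5 and 30427.5 per β-cell, and 1480 and 1140 in acinar cluster 1. Several classes held markers of other cells. Of the annotated T cells, 13 of 28 in the FAKi library and 7 of 168 in the vehicle library held at least 100 *Ins2* UMIs, and FAKi T cells had 178 CPM of T-cell markers beside 456507 CPM of β-cell markers. Cluster 8 of the δ-cells was led by *Ppy*, at 278292 CPM under vehicle and 263888 CPM under FAKi, with *Sst* at 6909 and 7524 CPM, while cluster 6 held *Sst* at 213487 and 219821 CPM. Acinar cluster 1 carried β-cell markers at 157476 and 252179 CPM. Cluster 9 of the α-cells held δ-cell markers at 61295 and 48297 CPM, acinar markers at 16968 and 18028 CPM and *Ppy* at 62348 and 24883 CPM beside its *Gcg*. β-cell transcripts were found in every class: outside β-cells, T cells and acinar cluster 1, *Ins2* lay between 2874 CPM (α-cells, vehicle) and 90724 CPM (fibroblasts, FAKi). In β-cells *Ins2* alone was at 394857 and 404454 CPM, which lowers the CPM of every other gene there. B cells of the FAKi library numbered 9 and entered no ranking of classes. The libraries shared 4 cell barcodes.

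*Cldn3* and *Cldn4* are neighbours. In the GENCODE annotation of mouse build GRCm38, *Cldn3* (ENSMUSG00000070473.4) spans chr5:134986214-134987472 on the plus strand and *Cldn4* (ENSMUSG00000047501.3) spans chr5:134945119-134946934 on the minus strand. Their starts lie 39280 bases apart and point away from each other. *Cldn5* (ENSMUSG00000041378.2) spans chr16:18776847-18778262 on the plus strand. The 250 bases before the start of these 3 genes are shown because *Cldn3* and *Cldn4* led in the same cells but differed in the FAKi library, and because *Cldn5* belonged to other cells. They are RefSeq sequence of build GRCm38.p6, 5′ to 3′ on the gene's own strand, at chr5:134985964-134986213 (plus), chr5:134946935-134947184 (minus) and chr16:18776597-18776846 (plus). Capitals mark matches, on either strand, to TGACTCA (AP-1 site), CACCTG (E-box), GGGCGG (GC box), CGGAAG (ETS site) or AACCNGTT (grainyhead site), and no marked matches overlap.
Cldn3: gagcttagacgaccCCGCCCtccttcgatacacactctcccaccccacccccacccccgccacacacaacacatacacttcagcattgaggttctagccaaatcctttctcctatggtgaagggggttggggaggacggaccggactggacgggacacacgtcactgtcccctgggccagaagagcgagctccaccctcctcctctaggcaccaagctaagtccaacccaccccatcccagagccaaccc
Cldn4: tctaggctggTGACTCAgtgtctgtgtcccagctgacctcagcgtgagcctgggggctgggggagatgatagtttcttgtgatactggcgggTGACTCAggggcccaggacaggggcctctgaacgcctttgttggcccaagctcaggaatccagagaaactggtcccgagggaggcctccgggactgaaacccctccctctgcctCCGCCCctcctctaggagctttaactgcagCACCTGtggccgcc
Cldn5: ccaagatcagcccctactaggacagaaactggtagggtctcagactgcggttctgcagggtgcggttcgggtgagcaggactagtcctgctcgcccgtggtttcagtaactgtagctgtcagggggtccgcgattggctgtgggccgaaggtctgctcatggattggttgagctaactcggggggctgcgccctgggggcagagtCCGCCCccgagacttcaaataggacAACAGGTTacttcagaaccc

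The *Cldn4* window held 2 AP-1 matches, 1 E-box and 1 GC box, the *Cldn3* window 1 GC box, and the *Cldn5* window 1 GC box and 1 grainyhead match. Of all 32851 windows of this length, 4.46% held the AP-1 letters, 17.2% the E-box, 32.7% the GC box, 13.6% the ETS letters and 1.79% the grainyhead letters. The motifs were chosen with these sequences in view, and a match describes letters only. *Cldn7*, *Cldn10* and *Ocln* each had 2 starts in RefSeq, 642, 67079 and 220 bases apart. Counts taken at the 3′ end of transcripts do not tell such starts apart.

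Ductal cells carried most of the tight junction genes, and endothelial cells carried their own pair. Of the 10 genes, 8 had the same highest class in both libraries at no less than 2 times the next class in both, against 13.3% of the 14092 genes with at least 100 UMIs. For 6 of the 8 (*Cldn3*, *Cldn4*, *Cldn7*, *Cldn10*, *Ocln* and *Cdh1*) this class was ductal cells (3.46% of all genes), and for *Cldn5* and *Cdh5* it was endothelial cells (3.15% of all genes). *Tjp1* led in endothelial cells and *Cdh2* in δ-cells by less than this ratio in at least 1 library. No member had its highest level in acinar or β-cells. The ductal class itself held 19756 and 19636 CPM of 9 ductal markers, all detected, and the endothelial class 13500 and 13594 CPM of 6 endothelial markers.

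**Figure D1:**
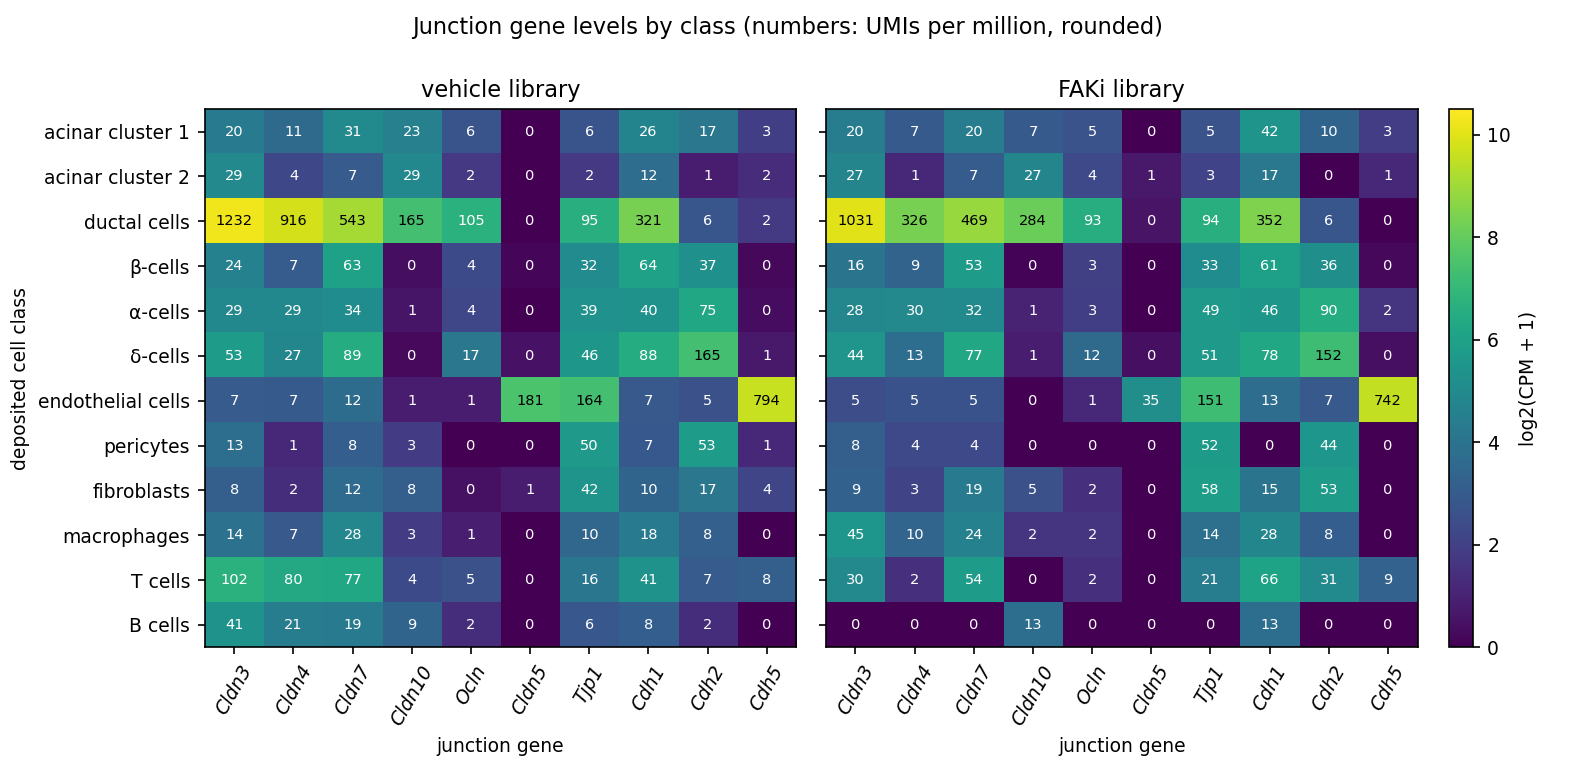
Levels of the 10 genes (columns) in the 12 deposited classes (rows), as log2(CPM + 1) by colour with the CPM printed, for the vehicle library (left) and the FAKi library (right). The ductal row is bright for *Cldn3*, *Cldn4*, *Cldn7*, *Cldn10*, *Ocln* and *Cdh1*, the endothelial row for *Cldn5*, *Tjp1* and *Cdh5*, and the δ-cell row for *Cdh2*.

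*Cldn3*, a claudin of tight epithelia that also binds a bacterial enterotoxin, was at 1232 CPM in ductal cells of the vehicle library and at 1031 CPM in those of the FAKi library. The endocrine classes followed far below, at 23.6 and 15.5 CPM in β-cells, 28.8 and 27.8 CPM in α-cells, and 52.7 and 43.9 CPM in δ-cells. The next class was T cells in the vehicle library, with 102 CPM, and macrophages in the FAKi library, with 45.2 CPM. Ductal cells stood 12.0 times [9.89 to 14.8] and 22.8 times [15.2 to 36.0] over these. The T-cell level rested on few droplets: 8 of 168 vehicle T cells held all 101 *Cldn3* UMIs, and 1 of them held 48.5%. A *Cldn3* UMI was found in 97.6% of 498 vehicle and 97.4% of 156 FAKi ductal cells. In endothelial cells, which should lack the gene, the share was 0.921% and 1.86%, at median depths of 5752 and 4836 UMIs. Of β-cells, 42.8% and 30.5% held a *Cldn3* UMI. With every cell thinned to 1000 UMIs the ductal shares were 69.3% and 65.8%, the β-cell shares 2.45% and 1.67%, and the endothelial share 0 in both libraries.

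*Cldn4*, the paralog next to *Cldn3*, was at 916 CPM in ductal cells of the vehicle library and 326 CPM in those of the FAKi library. α-cells had 29.3 and 29.6 CPM, δ-cells 27.4 and 12.998 CPM, and β-cells 7.42 and 9.02 CPM. Ductal cells were 11.4 times [9.16 to 14.5] over T cells and 11.01 times [9.32 to 13.05] over α-cells, the next classes. The 79 *Cldn4* UMIs of vehicle T cells came from 6 cells. Among the endocrine classes *Cldn4* was thus lowest in β-cells, whereas *Cldn7*, another epithelial claudin, was not: it was at 63.0 and 53.1 CPM in β-cells, 33.5 and 31.8 CPM in α-cells, and 88.9 and 76.5 CPM in δ-cells. In ductal cells *Cldn7* was at 543 and 469 CPM, 6.11 times [5.51 to 6.78] and 6.12 times [5.46 to 6.87] over δ-cells. With the 20 most abundant genes left out of the total, this lead over the next class was 3.42 and 3.50 times. Since β-cells were numerous, they gave 33.5% of all *Cldn7* UMIs under vehicle and 54.2% under FAKi. A *Cldn7* UMI was present in 73.6% and 69.8% of β-cells, against 4.42% and 2.60% of endothelial cells.

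*Cldn10*, a claudin that forms ion-selective pores, was shared by the exocrine classes. Ductal cells had 165 CPM under vehicle and 284 CPM under FAKi. Acinar cluster 2, the deeply sequenced acinar class, came next with 28.7 and 26.5 CPM from 37 and 40 UMIs, and ductal cells stood 5.75 times [4.15 to 8.22] and 10.7 times [7.76 to 15.1] over it. Endocrine classes held next to none: 10 and 3 UMIs in all β-cells, 2 and 6 in α-cells and 1 and 4 in δ-cells, that is 0.0782 to 0.998 CPM. *Ocln*, which encodes occludin, was at 105 and 93.0 CPM in ductal cells, 6.27 times [4.96 to 8.04] and 8.05 times [6.05 to 10.8] over δ-cells, which had 16.7 and 11.6 CPM. β-cells and α-cells had *Ocln* levels between 2.83 and 4.15 CPM. Without the 20 most abundant genes in the total, the ductal lead of *Ocln* over the next class was 3.91 and 5.06 times.

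*Tjp1*, which encodes the scaffold ZO-1, had the smallest lead of its highest class among the 10 genes. Endothelial cells had 164 and 151 CPM and ductal cells 94.8 and 94.4 CPM, a ratio of 1.73 [1.54 to 1.94] and 1.60 [1.32 to 1.94]. δ-cells (46.3 and 50.9 CPM), pericytes (49.5 and 52.4 CPM), fibroblasts (42.5 and 58.2 CPM) and α-cells (38.8 and 48.8 CPM) followed. Acinar cluster 2 was lowest of the epithelial classes, with 2.33 and 3.32 CPM from 3 and 5 UMIs.

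The classical cadherins divided the epithelium. *Cdh1* (E-cadherin), the cadherin of epithelia, was at 321 and 352 CPM in ductal cells, 88.5 and 77.6 CPM in δ-cells, 63.8 and 60.6 CPM in β-cells, and 40.1 and 45.6 CPM in α-cells. Ductal cells were 3.63 times [3.26 to 4.04] and 4.53 times [4.02 to 5.11] over δ-cells. Without the 20 most abundant genes in the total, they were 1.998 and 2.30 times over the next class. *Cdh2* (N-cadherin), the cadherin of neural and mesenchymal cells, was at 165 and 152 CPM in δ-cells, 75.4 and 90.3 CPM in α-cells and 37.3 and 36.4 CPM in β-cells, but at 5.92 and 5.99 CPM in ductal cells. δ-cells were 2.18 times [1.90 to 2.51] over α-cells in the vehicle library and 1.68 times [1.51 to 1.88] in the FAKi library. Pericytes had 53.5 and 44.3 CPM of *Cdh2*. Both cadherins were found in the same cell in 52.3% and 47.5% of β-cells, 53.7% and 54.7% of δ-cells and 22.7% and 30.0% of α-cells, but in 5.02% and 7.05% of ductal cells. If the genes were independent, their own shares would give 47.2% and 43.2%, 46.3% and 48.0%, 22.7% and 28.8%, and 4.78% and 6.28%. These shares are of unthinned cells, with median depths of 30792.5 and 30427.5 UMIs in β-cells and 13126 and 13262.5 in α-cells. In δ-cells the medians were 12670.5 and 13782 UMIs, and in ductal cells 9546 and 9661.5. The part of depth in these shares, and of δ-cell clusters 6 and 8, was not tested.

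The vascular genes were the most restricted. *Cdh5* (VE-cadherin), the adherens junction cadherin of endothelium, was at 794 and 742 CPM in endothelial cells, and T cells were next with 8.11 and 8.72 CPM from 8 and 5 UMIs. The ratio was 97.9 [49.6 to 227] and 85.1 [36.3 to 262]. Endothelial cells gave 98.5% and 97.5% of all *Cdh5* UMIs, and 513 of 543 and 240 of 269 endothelial cells held one, against 2 of 1076 and 5 of 1336 β-cells. *Cldn5*, the tight junction claudin of endothelium, was at 181 and 35.3 CPM in endothelial cells. The next classes held 2 UMIs (fibroblasts, vehicle) and 1 UMI (acinar cluster 2, FAKi), with ratios of 228 [63.0 to 1890] and 53.2 [9.14 to 2139]. No *Cldn5* UMI was seen in the 498 vehicle ductal cells, which allows up to 0.480 CPM.

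The acinar classes had low levels of all 10 genes, at most 42.2 CPM. In acinar cluster 2 *Cldn3* was at 29.5 and 26.5 CPM, *Cldn10* at the level given above and *Cdh1* at 12.4 and 17.2 CPM. In acinar cluster 1 *Cldn7* was at 31.2 and 20.4 CPM, 4.46 times [1.68 to 12.2] and 2.80 times [1.201 to 6.73] its level in cluster 2, and *Cdh1* was at 25.5 and 42.2 CPM, 2.05 times [0.80 to 4.94] and 2.45 times [1.41 to 4.29]. These 2 of the 4 members with at least 20 UMIs over both classes in each library (*Cldn3* and *Cldn10* were the others) passed 2 times in both libraries. Of 366 genes with at least 100 UMIs over both classes in each library, a minimum no member reached, 19.4% did. *Cdh2* had 6 UMIs in cluster 1 against 1 in cluster 2 of the vehicle library, and 7 against 0 in the FAKi library. *Cldn10* gave 0.789 [0.318 to 1.72] and 0.256 [0.0790 to 0.650]. The β-cell markers, 157476 and 252179 CPM in cluster 1 against 6988 and 9552 CPM in cluster 2, moved with these ratios, and their part in them was not tested. The counts are small. *Cdh1* no longer passed with cells under 5% mitochondrial counts or thinned to 1000 UMIs, and with the library background subtracted neither gene passed while *Cldn3* did, lower in cluster 1 at 0.199 and 0.402.

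In the FAKi library, ductal cells had less *Cldn4* and more *Cldn10*. Across all classes 36 pairs of gene and class had at least 20 UMIs in each library. The interval of the FAKi over vehicle ratio lay above 1 in 7 of them and below 1 in 11. Of the 63035 such pairs over all genes, 9.91% lay above 1 and 13.9% below. These shares are not matched to the members' UMI counts, and more UMIs narrow an interval. A gene that is low in either library misses this minimum, as did *Cdh5* in ductal cells with 15 and 0 UMIs. Other pairs missed it with an interval clear of 1. Lower under FAKi were *Cldn4* (79 and 1 UMIs) and *Cldn3* (101 and 17) in T cells and *Cldn7* in endothelial cells (46 and 8). Higher were *Cldn3* in macrophages (17 and 23), *Cdh2* in T cells (7 and 18) and *Cdh5* in α-cells (1 and 12). Of the 36 pairs, 4 were past 2 times either way: *Cldn4* in ductal cells and in δ-cells, *Cldn5* in endothelial cells and *Cdh2* in fibroblasts. Of genes with at least 100 UMIs over both libraries in the same class, the share past 2 times was 2.1% in ductal, 0.665% in δ-cells, 2.69% in endothelial cells and 4.89% in fibroblasts, where *Cdh2* itself stayed under that minimum. These ratios compare 1 library with 1 other.

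**Figure D2:**
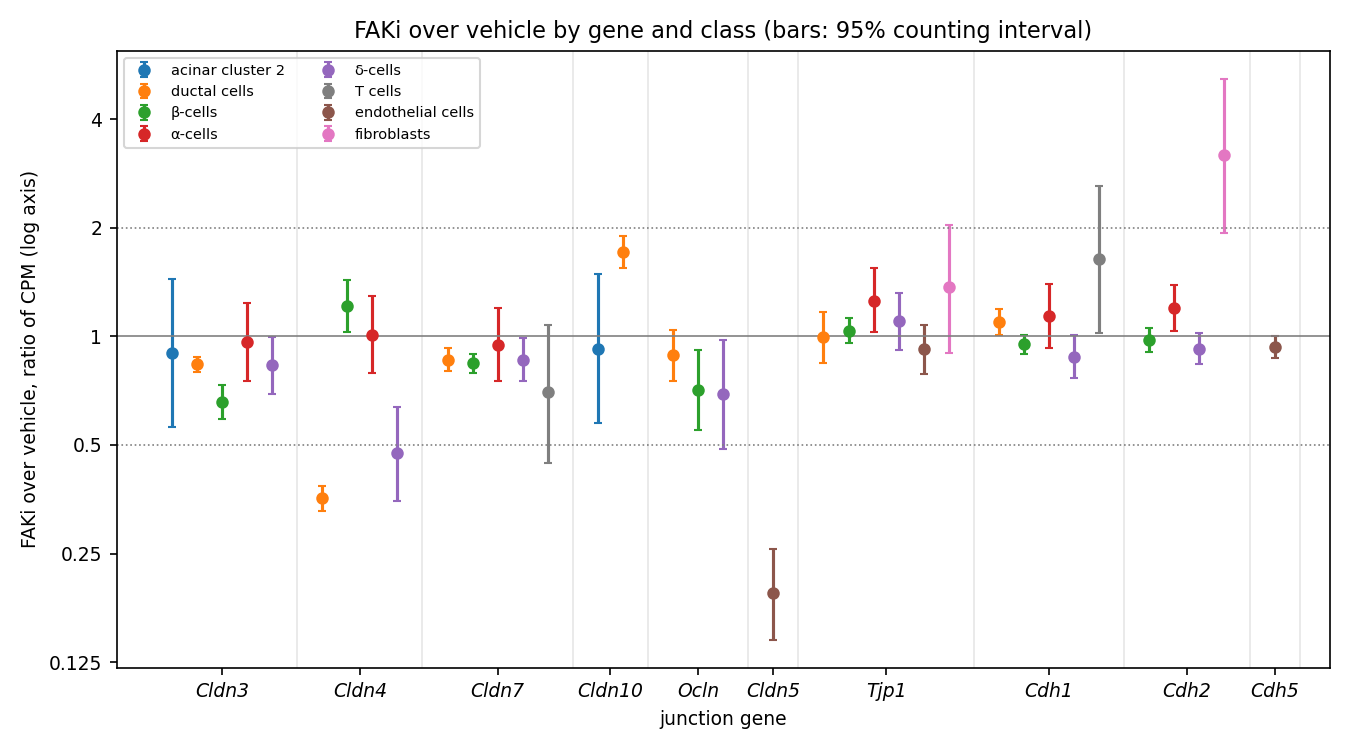
Ratio of the CPM in the FAKi library to that in the vehicle library (log axis) for the 36 pairs of gene and class with at least 20 UMIs in each, coloured by class, with 95% counting intervals, a line at 1 and dotted lines at 2 times either way. *Cldn5* in endothelial cells (0.194) and *Cldn4* in ductal cells (0.356) lie lowest and *Cdh2* in fibroblasts (3.18) highest.

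*Cldn4* in ductal cells was at 916 CPM from 5722 UMIs under vehicle and at 326 CPM from 708 UMIs under FAKi, a ratio of 0.356 [0.329 to 0.385]. Of 8601 genes, 1.43% were at least 2 times lower there. The lower level was spread over the cells. The median was 6 and 2 UMIs per cell and the 90th percentile 29 and 13.5, and 79 of 498 vehicle against 49 of 156 FAKi ductal cells held none. The 10 richest of 498 vehicle cells held 13.2% of the *Cldn4* UMIs and the 10 richest of 156 FAKi cells 36.0%. These are different fractions of the class, so the shares do not compare concentration. *Cldn3*, its neighbour, differed less, at 0.837 [0.798 to 0.877], with medians of 12 and 10 UMIs per cell. *Cldn7* was at 0.863 [0.804 to 0.926], which turned above 1 in thinned cells, *Ocln* at 0.887 [0.754 to 1.04], *Tjp1* at 0.996 [0.846 to 1.17] and *Cdh1* at 1.10 [1.01 to 1.19].

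*Cldn10* went the other way, from 165 CPM and 1032 UMIs to 284 CPM and 616 UMIs, a ratio of 1.72 [1.55 to 1.90]. A *Cldn10* UMI was found in 48.4% of vehicle and 62.8% of FAKi ductal cells, and the 90th percentile was 6 and 12 UMIs per cell. In β-cells, which hold almost none, the shares were 0.929% and 0.225%. *Cldn4* was lower in the FAKi library in ductal cells with and in those without a *Cldn10* UMI. This split rests on detection. Median depth with and without a *Cldn10* UMI was 12213 and 8101 UMIs in vehicle cells, and 9907.5 and 9541 UMIs in FAKi cells. In cells with a *Cldn10* UMI *Cldn4* was at 924 CPM (241 vehicle cells) and 294 CPM (98 FAKi cells), a ratio of 0.318 [0.287 to 0.353], and in cells without one it was at 906 CPM (257 cells) and 387 CPM (58 cells), a ratio of 0.428 [0.377 to 0.483]. Over 6 other ways of computing the levels the *Cldn4* ratio ranged from 0.294 to 0.375 and that of *Cldn10* from 1.63 to 2.48. Ductal cells of the FAKi library also carried more acinar transcripts (5355 against 2677 CPM of 6 markers, all detected) and more β-cell transcripts (53949 against 24326 CPM of 6 markers, all detected). Their part in these ratios was not tested. With the library background subtracted the *Cldn4* ratio was 0.358.

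**Figure D3:**
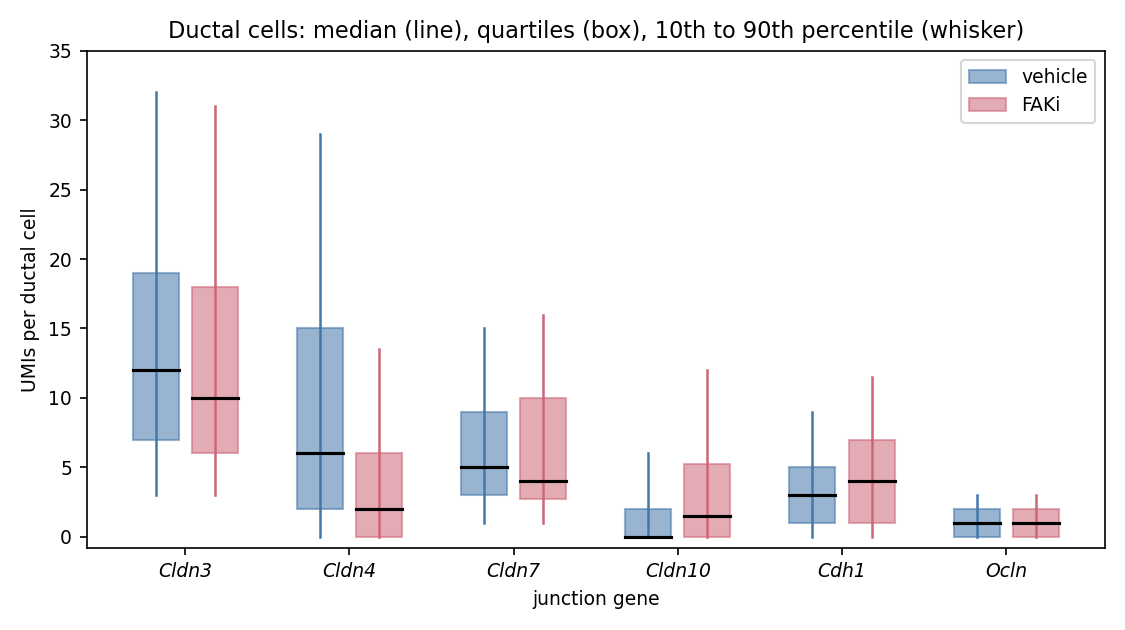
UMIs per ductal cell for 6 junction genes in the 498 vehicle and 156 FAKi ductal cells: line, median; box, quartiles; whisker, 10th to 90th percentile. *Cldn4* has a median of 6 in vehicle and 2 in FAKi cells, and *Cldn10* of 0 and 1.5.

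In β-cells *Cldn3*, *Cldn7* and *Ocln* were lower in the FAKi library, while the intervals of both cadherins and *Tjp1* held 1. Of all genes with at least 20 UMIs in each library, 22.5% had an interval below 1 in β-cells and 11.9% above. *Cldn3* was at 23.6 and 15.5 CPM, a ratio of 0.658 [0.591 to 0.733], *Cldn7* at 0.842 [0.792 to 0.895] and *Ocln* at 0.710 [0.549 to 0.917]. The ratio was 0.95 [0.895 to 1.01] for *Cdh1*, 0.977 [0.904 to 1.06] for *Cdh2* and 1.04 [0.956 to 1.13] for *Tjp1*. None of the 7 β-cell ratios passed 2 times, where 0.986% of genes did. The lower *Cldn3* appeared in each β-cell cluster, at 0.692 [0.604 to 0.793] in cluster 0, 0.578 [0.463 to 0.722] in cluster 1 and 0.695 [0.505 to 0.951] in cluster 10. With the library background subtracted it was 0.909. *Cldn4* in β-cells was at 7.42 and 9.02 CPM, 1.21 [1.03 to 1.44], and turned below 1 when each cell counted equally. Background subtraction left 0.963 and 8.03 CPM, a ratio of 8.34, so the size of this ratio rests on the setting.

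δ-cells had lower *Cldn4* as well, at 27.4 CPM from 128 UMIs under vehicle and 12.998 CPM from 72 UMIs under FAKi, a ratio of 0.474 [0.350 to 0.638]. It was 0.505 [0.319 to 0.787] in cluster 6 and 0.447 [0.294 to 0.671] in the *Ppy*-rich cluster 8. Ductal markers were at 733 and 780 CPM in this class, and their part in the ratio was not tested. The ratio missed 2 times in cells under 5% mitochondrial counts, in thinned cells and after background subtraction, where it was 0.530. *Ocln* was at 0.691 [0.489 to 0.975], *Cldn7* at 0.861 [0.750 to 0.988] and *Cldn3* at 0.832 [0.694 to 0.998] in δ-cells, the last turning to 1.13 in thinned cells, while *Cdh2* was at 0.924 [0.837 to 1.02]. In α-cells the ratios with an interval clear of 1 were both above it, *Tjp1* at 1.26 [1.03 to 1.54] and *Cdh2* at 1.198 [1.04 to 1.39], and *Cldn4* was at 1.01 [0.794 to 1.29]. Below the minimum of 20 UMIs, *Cdh5* had 1 and 12 UMIs. The *Tjp1* ratio was 1.30 [1.03 to 1.65] in cluster 5 and 1.14 [0.746 to 1.76] in cluster 9, and that of *Cdh2* was 1.22 [1.03 to 1.46] and 1.10 [0.843 to 1.44], so that the intervals in cluster 9 held 1. *Ppy* was at 45503 and 16443 CPM in α-cells, and its part in these ratios was not tested. Neither ratio passed 2 times, as 0.832% of genes did, except *Tjp1* at 2.24 in thinned cells.

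Endothelial *Cldn5* was concentrated in 1 cluster and few cells. A *Cldn5* UMI was found in 59 of 543 vehicle endothelial cells (10.9%) and 13 of 269 FAKi endothelial cells (4.83%), against 0.279% and 0.0749% of β-cells, and the 10 richest cells held 50.1% and 94.3% of its UMIs. Cluster 11 had 461 CPM under vehicle and 199 CPM under FAKi, while cluster 3 had 22.0 and 0.805 CPM, the last from 1 UMI. The ratio of the clusters was 21.0 [15.8 to 28.3] and 247 [42.5 to 9949], and 9.94% of genes passed 2 times between them in both libraries. Cluster 11 held 172 of the vehicle but only 40 of the FAKi endothelial cells. The FAKi over vehicle ratio of 0.194 [0.144 to 0.257] over the whole class was 0.432 [0.319 to 0.573] within cluster 11 and 0.0366 [0.000910 to 0.213] within cluster 3. Markers of other cells differed as well: over the class those of β-cells summed to 54538 and 80379 CPM, of α-cells to 912 and 6137 CPM and of acinar cells to 2388 and 4425 CPM, all detected, while in cluster 11 those of β-cells summed to 44503 and 5865 CPM, with 0 and 1 of 6 undetected. Their part in the *Cldn5* ratio was not tested. *Cdh5* differed far less between the clusters, with 825 and 722 CPM in cluster 3 and 740 and 838 CPM in cluster 11. Its FAKi over vehicle ratio was 0.934 [0.871 to 1.00] over the class. It was 0.875 [0.807 to 0.947] within cluster 3 and 1.13 [0.974 to 1.31] within cluster 11. *Tjp1* was 1.45 times [1.23 to 1.70] and 1.56 times [1.13 to 2.12] higher in cluster 11 than in cluster 3. Vehicle endothelial cells with a *Cldn5* UMI had 677 CPM of *Cdh5* and those without one 814 CPM.

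**Figure D4:**
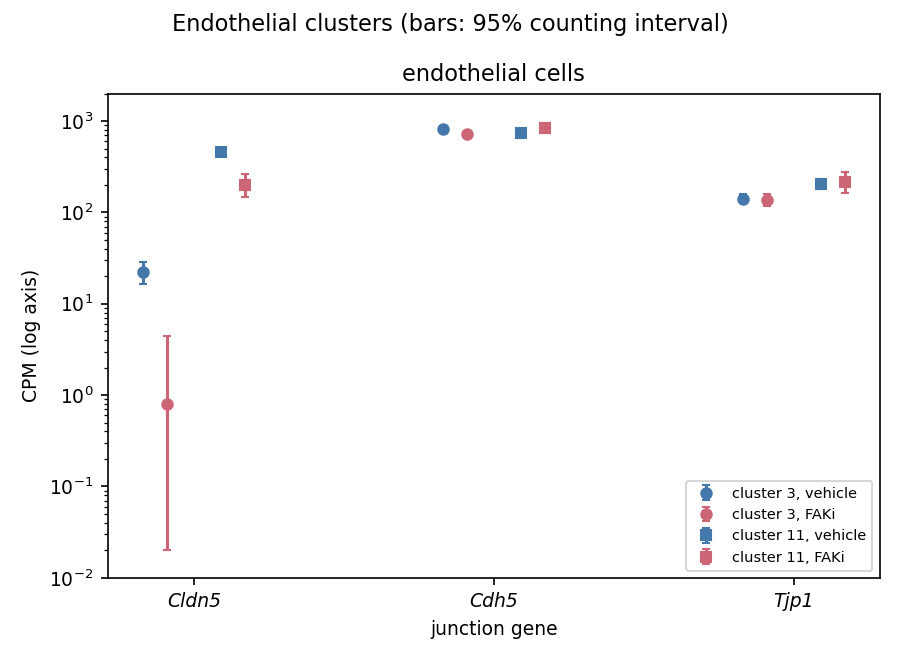
CPM (log axis) of *Cldn5*, *Cdh5* and *Tjp1* in endothelial clusters 3 (circles) and 11 (squares) of the vehicle (blue) and FAKi (red) libraries, with 95% counting intervals. *Cldn5* differs between the clusters, from 0.805 to 461 CPM, while *Cdh5* stays between 722 and 838 CPM.

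In fibroblasts *Cdh2* was at 16.7 CPM from 42 UMIs under vehicle and at 53.0 CPM from 31 UMIs under FAKi, a ratio of 3.18 [1.93 to 5.18]. The FAKi class held 63 cells and the vehicle class 264. Schwann cell markers, of which 2 of 3 were detected, summed to 42.1 CPM in fibroblasts under vehicle and 197 CPM under FAKi, β-cell markers to 66782 and 133073 CPM, and the mesenchymal markers to 25077 and 16732 CPM. Their part in the ratio was not tested. In T cells *Cdh1* was at 40.6 and 66.3 CPM, 1.63 [1.02 to 2.61], in a class where 36.3% of genes passed 2 times and where insulin-rich droplets were 13 of 28 FAKi cells. Over 6 alternatives this ratio ran from 0 in thinned cells to 2.93, so its direction rests on the setting.

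The endocrine clusters differed most within the δ-cell label. Cluster 6 had 260 and 244 CPM of *Cdh2* and the *Ppy*-rich cluster 8 had 71.5 and 71.4 CPM, a ratio of 3.64 [3.06 to 4.34] and 3.41 [2.92 to 4.01]. *Cdh1* was at 128 and 125 CPM against 49.9 and 36.0 CPM, 2.56 times [2.06 to 3.20] and 3.46 times [2.77 to 4.35], and *Cldn7* at 123 and 105 CPM against 55.4 and 51.3 CPM, 2.22 times [1.80 to 2.75] and 2.05 times [1.67 to 2.51]. With at least 20 UMIs over both clusters in each library, these 3 genes passed 2 times in both, as did 15.8% of 4961 genes. *Cldn3* passed in the vehicle library only, at 2.13 times [1.62 to 2.81] against 1.18 times [0.910 to 1.53] in the FAKi library. *Tjp1* was 1.81 times [1.36 to 2.43] and 1.88 times [1.47 to 2.42] higher in cluster 6, and the intervals of *Cldn4* held 1, at 0.849 [0.589 to 1.22] and 0.958 [0.584 to 1.56]. With cluster 8 kept apart, *Cdh2* in cluster 6 stood 3.45 and 2.70 times over α-cells, and 9 of the 10 genes met the 2 times rule in both libraries.

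Among β-cells, cluster 10 had 3.47 times [2.54 to 4.70] and 2.26 times [1.63 to 3.09] the *Cldn4* of cluster 0, at 19.6 and 16.8 CPM against 5.65 and 7.43 CPM. With the mean over cells the ratios were 9.09 and 2.07. Called doublets were 12 of 121 and 18 of 115 cells in cluster 10 and 0 in cluster 0, and without them the ratios were 3.52 and 2.42. Of the members with at least 20 UMIs over both clusters in each library it alone passed 2 times in both, where 1.86% of 9103 genes did. Below that minimum *Cdh5* had 4 UMIs against 0 and 3 against 2. *Cdh2* was 1.49 times [1.26 to 1.75] and 1.44 times [1.21 to 1.70] and *Cldn3* 1.40 times [1.13 to 1.73] and 1.41 times [1.07 to 1.83] higher in cluster 10. Cluster 10 also held 11480 and 13168 CPM of α-cell markers against 369 and 595 CPM in cluster 0, and 15096 and 12054 CPM of *Ppy* against 57.5 and 79.0 CPM. Their part in the *Cldn4* ratio was not tested, and *Cldn4* no longer passed with the library background subtracted or without the 20 most abundant genes in the total. In thinned cells *Cldn3* passed in its place. In cluster 1 no member with that minimum passed 2 times over cluster 0 in both libraries, as 0.374% of 9370 genes did. *Tjp1* was lower there, at 0.762 [0.644 to 0.897] and 0.664 [0.577 to 0.762]. In α-cells *Cldn7* was 2.07 times [1.42 to 2.99] and 1.75 times [1.29 to 2.36] higher in cluster 9 than in cluster 5. It missed 2 times in the FAKi library, and 1.17% of 4192 genes passed in both. The acinar and δ-cell markers given above for cluster 9 were at 216 and 441 CPM and at 1184 and 1265 CPM in cluster 5, and their part in the ratio was not tested.

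**Figure D5:**
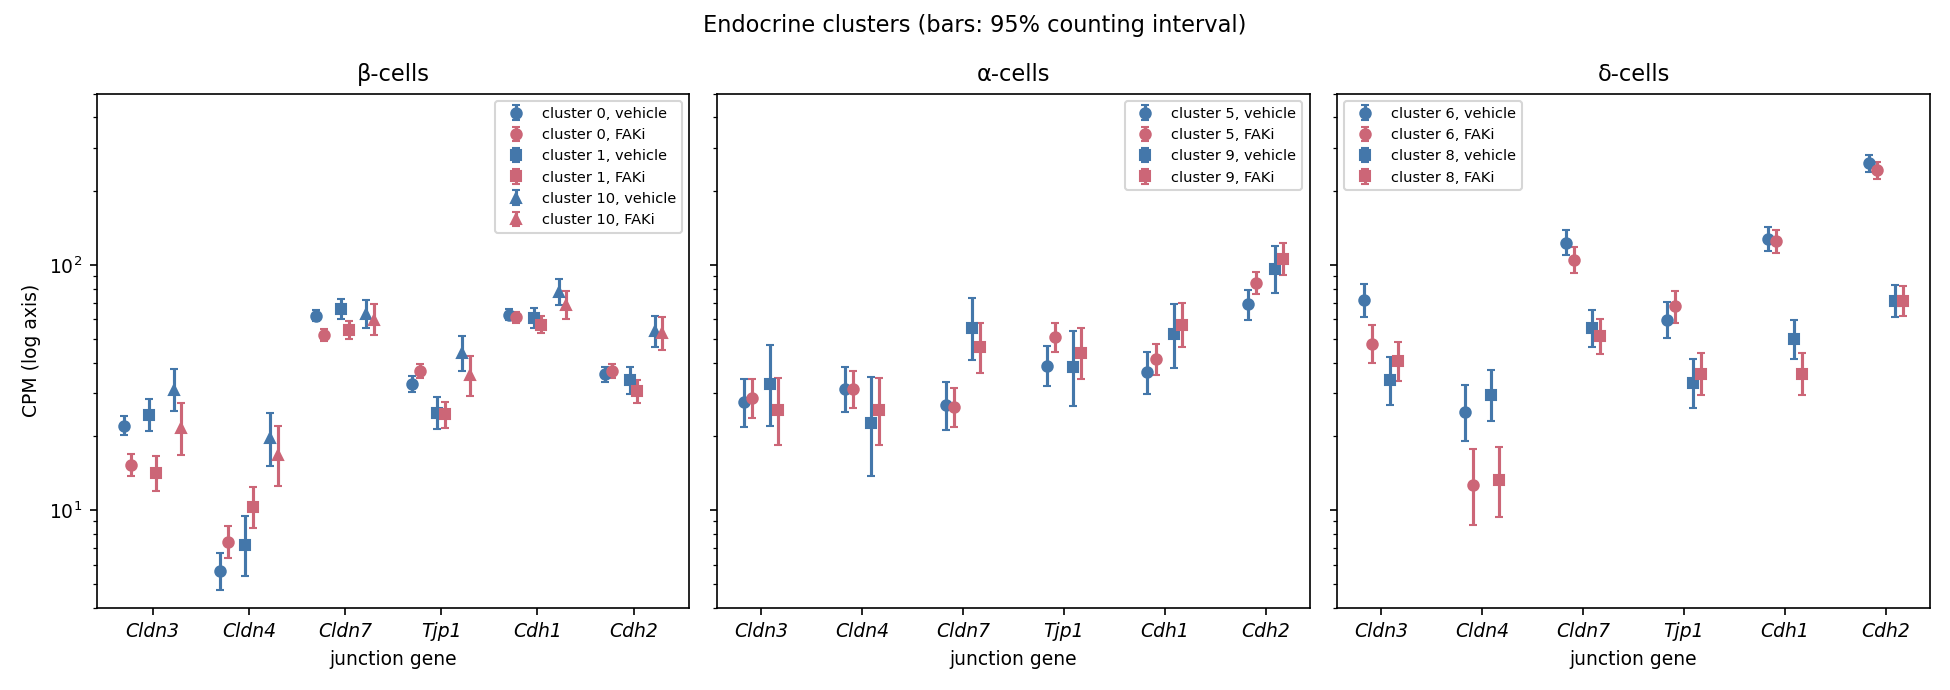
CPM (log axis) of 6 junction genes in the deposited clusters of β-cells, α-cells and δ-cells, in the vehicle (blue) and FAKi (red) libraries, with 95% counting intervals. In δ-cells, cluster 6 lies above cluster 8 for *Cdh2* (260 and 244 against 71.5 and 71.4 CPM), and in β-cells cluster 10 lies above cluster 0 for *Cldn4*.

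The genes whose levels followed each member most closely over 23 points (a class of at least 20 cells in 1 library) were found by Pearson's r of log2(CPM + 1). The points of a library share its depth and background, so r is a description. *Cldn3* was closest to the simple epithelial keratins *Krt8* (0.95) and *Krt18* (0.95), followed by *Bicdl2* (0.93), and *Ocln* to *Krt18* (0.93), the desmosome gene *Dsp* (0.92) and *Krt8* (0.92). *Cldn4* was closest to *Pkhd1*, which encodes fibrocystin (0.93), the membrane protease gene *St14* (0.92) and the copper transporter gene *Atp7b* (0.91), and *Cldn7* to the adhesion molecule gene *Epcam* (0.96), *Rassf7* (0.92) and *Krt18* (0.92). *Cldn10* was closest to *Aldh1l1*, a folate enzyme gene (0.94), and *Sh2d4a* (0.94). *Cdh1* was closest to *Rab25* (0.97), the polarity gene *Crb3* (0.97) and *Dsp* (0.95), and *Tjp1* to the motor gene *Myo6* (0.97), *Arhgef12* (0.95) and *Ctnnd1*, which encodes p120 catenin (0.95). *Cdh2* was closest to *Meg3* (0.94), *Tspyl4* (0.94) and the microtubule gene *Map1b* (0.93). *Cldn5* was closest to *Mmrn1* (0.98), the gap junction gene *Gja5* (0.97) and *Ephb1* (0.97), and *Cdh5* to *Adgrl4* (0.97), the phosphatase gene *Ptprb* (0.96) and *Gpihbp1* (0.96). Outside endothelial cells *Cldn5* reached at most 0.794 CPM, so its r rests on few points. By Spearman's rho none of *Mmrn1*, *Gja5* and *Ephb1* was among the 3 genes closest to *Cldn5*, where the highest rho was 0.745. Between members r was highest for *Cldn7* and *Cdh1* (0.90) and for *Cldn5* and *Cdh5* (0.90).

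A wider list of 71 junction genes, 65 of them in the table, was also highest mostly in ductal cells. Of 58 listed genes with at least 100 UMIs, 52 had the same highest class in both libraries, where 55% of all genes did, and 30 of these were highest in ductal cells, where 15.9% of all genes were. The 2 times rule was met by 29 genes, 20 of them in ductal cells, where 13.3% and 3.46% of all genes met it. At 4 times or more stood 16 genes, where 5.54% of all genes did, with 1.57% in ductal and 1.34% in endothelial cells. In ductal cells these included *Cldn2*, *Cldn8*, *Cldn23*, the scaffold gene *Tjp3*, the polarity gene *Pard6b*, *Nectin2*, *Cdh6*, the desmosome genes *Dsg2* and *Ppl* and the gap junction gene *Gjb1*, in endothelial cells *Jam2*, *Gja5* and *Pecam1*, in pericytes *Gjc1* and in fibroblasts *Cdh11*. *Jam2*, a junctional adhesion molecule gene, was at 266 and 203 CPM in endothelial cells, 12.9 times [9.74 to 17.4] and 11.1 times [8.86 to 14.1] over the next. None of the 58 was highest in an acinar class in both libraries. The gap junction gene *Gjb2*, with 99 UMIs just under that minimum, was highest in acinar cluster 2 in both, at 17.1 CPM from 22 UMIs and 22.6 CPM from 34 UMIs.

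Between libraries the listed genes with at least 20 UMIs in each stayed within 2 times in ductal and β-cells. In ductal cells 40 of its genes had at least 20 UMIs in each library, with the interval above 1 for 3 and below 1 for 11, where 11.8% and 10.7% of all genes were. Among these ductal values *Nectin2* was at 275 and 200 CPM, 0.727 [0.653 to 0.808], and *Tjp3* at 75.4 and 61.7 CPM, 0.818 [0.670 to 0.993]. In β-cells 42 listed genes met the minimum, with 5 above and 17 below, where 11.9% and 22.5% of all genes were. The minimum leaves out genes that are nearly absent from a library. With at least 20 UMIs summed over both libraries instead, 1 of 51 listed genes was at least 2 times higher and 5 were at least 2 times lower in ductal cells of the FAKi library, where 5.76% of all genes passed either way, and 1 of 44 was higher and 1 lower in β-cells, where 3.62% passed. Of the lower ones, named after their values were seen, *Cdh16* had 84 and 6 UMIs in ductal cells, a ratio of 0.205 [0.0733 to 0.466], and *Cdh13* had 93 and 12 UMIs, a ratio of 0.371 [0.185 to 0.680]. The endothelial genes *Pecam1* (27 and 1 UMIs) and *Esam* (37 and 5 UMIs) were lower too, and *Cdh17* had 30 and 0 UMIs. Endothelial markers in ductal cells were at 55.5 and 21.2 CPM, with 0 and 3 of 6 undetected, and their part in these ratios was not tested. Over genes with at least 100 UMIs in a class, the median log2 ratio of the list in ductal cells was -0.13, that of the 7 members measured there -0.17 and that of all 8601 genes 0.0052. In β-cells the medians were -0.11 for the list, -0.073 for the members and -0.044 for all 11059 genes. In δ-cells they were -0.078, -0.21 and -0.047, and in α-cells 0.092, 0.098 and 0.033.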

How the data were processed

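Islets were profiled with the 10x Genomics 3′ kit (v3.1). Per the labels, the authors aligned reads to mm10 with Cell Ranger and analysed them in Seurat 3.1. The authors deposited 1 table of raw UMI counts per gene and cell, and a cell table with library, cluster, class and the percent of mitochondrial counts. The study kept cells under 8% mitochondrial counts. The deposited tables do not split cells by lane, so each library of 4 lanes was 1 sample. The members and gene lists were chosen with earlier results of these data known. Named genes were the 10 members, the 3 genes most correlated with each, and genes of the wider list at no less than 4 times the next class in both libraries. Some genes that this rule names are not reported here.

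Counts were summed per class and library and given as CPM. Levels carry exact Poisson intervals, ratios exact conditional binomial intervals, and shares of cells were computed with and without thinning to 1000 UMIs, all at 95% and for counting error only. With 1 library per condition no test was run. On Poisson counts simulated for ductal cells, 95.5% of the intervals of 200 genes changed 4 times held the true ratio. The simulated counts follow the assumption of the intervals, so this does not show their coverage where counts vary between cells. Promoter windows came from RefSeq (GRCm38.p6), which matched 7 of 10 members, and gene positions from GENCODE (GRCm38). The sequence of *Cdh2* was not used here. Doublets were called with scrublet in scanpy 1.11.5 (68 vehicle and 57 FAKi cells), kept in the main values and left out in 1 alternative. Other alternatives were the mean over cells, a total without the 20 most abundant genes, cells under 5% mitochondrial counts, and subtraction of the library's pooled profile, scaled by the hormone or acinar transcripts a class should lack. Software was python 3.11.15, numpy 2.4.6, scipy 1.17.1 and pandas 2.3.3.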

Additional observations from a re-analysis of the deposited data

Results flagged for a closer look

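*Cldn4* differed between classes in the direction of its FAKi over vehicle ratio. It was 0.356 in ductal cells and 0.474 in δ-cells, both with an interval under 1, and 1.21 in β-cells, with an interval above 1. With 1 library per condition the difference between the classes was not tested. The β-cell level was low, at 7.42 and 9.02 CPM, and its ratio ranged from 0.791 with the mean over cells to 8.34 with the background subtracted, so the difference in direction rests on the setting.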

How the results depend on the processing

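With each condition at 1 pooled library, every interval covers counting error only and mouse-to-mouse spread is unknown. No paired analysis was possible because the lane numbers shared by the libraries mark sequencing lanes of 1 library each and no result came from a test. Under all alternatives run, the same highest class in both libraries was found for 10 of 10 members and ductal cells led for 6. The count meeting the 2 times rule was 8, except 7 without the 20 most abundant genes in the total, which loses *Cdh1*, and 9 with δ-cell cluster 8 apart, a setting chosen after seeing the data, as was leaving out the insulin-rich T-cell droplets. The 4 pairs past 2 times between libraries became 9 in thinned cells, where few UMIs remain, and 5 with the mean over cells or without the 20 most abundant genes, which add *Cdh1* in T cells. They stayed 4 in cells under 5% mitochondrial counts, with *Cdh1* in T cells in place of *Cldn4* in δ-cells, and with the background subtracted, with *Cldn4* in β-cells in that place. The β-cell cluster 10 count of 1 became 0 without the 20 most abundant genes and with the background subtracted. The acinar count of 2 became 1 with cells under 5% mitochondrial counts, with thinning and with the background subtracted. Thinning lowered the share of ductal cells with *Cldn4* to 46.7% and 20.6% (vehicle and FAKi), and with *Cldn10* to 11.1% and 25.2%. Of the 30 genes closest to the members by Pearson's r, 9 were also among the closest by Spearman's rho. Of 216 recomputed ratios, 188 moved by less than their counting interval, 24 moved by more, and 4 whose interval excluded 1 turned direction on the log2 scale: *Cldn4* in β-cells to -0.31 with the mean over cells, and in thinned cells *Cldn7* in ductal cells to 0.095, *Cldn3* in δ-cells to 0.17 and *Cdh1* in T cells to -3.71. A further 17 values changed sign where the main interval held 1, among them *Cldn7* in T cells (-0.50, to 0.45 with the mean over cells and 0.21 without the 20 most abundant genes) and *Cldn10* in acinar cluster 2 (-0.11, to 3.29 in thinned cells). The cause of these changes was not tested.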

Other observations

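Some genes of the wider list, picked here after their values were seen, added to the picture of the vessels and β-cells. *Cldn15*, a pore-forming claudin, was at 15.1 CPM from 57 UMIs in vehicle and 55.2 CPM from 83 UMIs in FAKi endothelial cells, a ratio of 3.66 [2.58 to 5.23], where *Cldn5* was lower. Within cluster 3 the *Cldn15* ratio was 3.06 [2.09 to 4.50], from 47 and 74 UMIs, and within cluster 11 it was 4.73 [1.70 to 12.9], from 10 and 9 UMIs. *Gja4* (connexin 37) was at 128 and 199 CPM in endothelial cells, 1.56 times [1.34 to 1.80], and *Pecam1* at 1474 and 1151 CPM, 0.781 [0.740 to 0.825]. *Gja4* was higher in pericytes, at 304 and 314 CPM. The *Gja4* and *Pecam1* ratios are over the whole class, of which cluster 11 held 172 of 543 vehicle and 40 of 269 FAKi cells. The part of this make-up in them was not tested. In endothelial cells 2.69% of genes passed 2 times either way.

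*Gjd2*, which encodes connexin 36 and couples β-cells, was highest in β-cells in both libraries, at 87.7 and 82.9 CPM. *Cdh7*, a cadherin gene, was at 4.51 CPM from 150 UMIs and 8.13 CPM from 312 UMIs, a FAKi over vehicle ratio of 1.80 [1.48 to 2.21]. The ratio was 1.83 in cluster 0, 2.41 in cluster 1 and 1.35 [0.722 to 2.57] in cluster 10. In β-cells 0.986% of genes passed 2 times either way.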
